A study of Mus musculus with 24 samples.

Results

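The ephrin, netrin and slit guidance systems were followed in the hippocampus of mice with and without Egr1, an immediate early gene that encodes a zinc finger transcription factor. Their 40 genes were taken by symbol and matched to Ensembl gene identifiers: 5 ephrin-A ligands, 3 ephrin-B ligands, 9 EphA and 5 EphB receptors, 4 netrins, 2 netrin-Gs, 3 Slits, 4 Robo receptors, and the 5 netrin receptors Unc5a to Unc5d and Dcc. A gene was kept when at least 6 of the 24 mice had 10 or more counts. All 40 of the 40 guidance genes passed, beside 18610 of the 36605 genes in the whole table. They make up 17 ligands and 23 receptors.

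Hippocampal polyA RNA of 24 adult mice was sequenced, 6 mice of each of 4 genotypes, with 3 females and 3 males in each. Wild-type mice (Egr1wt NesCre-) had neither a floxed allele nor a Cre transgene. Floxed controls (Egr1f NesCre-) carried floxed Egr1 without Cre, and Nestin-Cre mice (Egr1wt NesCre+) carried the transgene with intact Egr1. Egr1cKO mice (Egr1f NesCre+) carried both. The Nestin promoter that drives Cre is active in neural precursors from before birth, so the deletion is not limited to the adult hippocampus or to neurons of a given kind. The mouse numbers in the labels run in separate ranges for Egr1wt and Egr1f mice, so the allele and the series of mice cannot be told apart. The Cre comparisons within Egr1f mice and within Egr1wt mice are free of that split. Because the tissue is bulk hippocampus, fewer cells of a type and less RNA per cell cannot be told apart in any value given here.

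Ephrins are membrane-bound ligands of the Eph receptor tyrosine kinases: A-type ephrins hang on a lipid anchor, B-type ephrins cross the membrane, and both can signal back into the cell that carries them. Secreted netrins attract axons through Dcc and repel them through the Unc5 receptors, while secreted Slits repel axons through Robo receptors. In the adult hippocampus the same molecules are known at synapses and dendritic spines, in the borders between afferent layers and in the migration of newborn neurons.

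The counts assigned to genes ran from 18025168 to 34955004 per mouse, with a median of 22743950.5. Egr1 itself lay between 4.86 and 10.2 CPM (counts scaled to library size) in Egr1cKO mice and between 47.7 and 149 CPM in the other 18, in keeping with every label. The labels give the cell type as endocrine, and the data go against this. The 9 pituitary markers measured summed to 1.16 to 4.08 CPM per mouse, and 10 markers of hippocampal neurons summed to 5764 to 9093 CPM. No pair of mice of a group differed by as little as sampling noise. In 5 mice Ttr, the choroid plexus transthyretin, exceeded 100 CPM; these were 2 floxed controls, 2 Nestin-Cre mice and 1 Egr1cKO mouse, and the guidance genes were also compared without them.

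Promoter sequence is shown for 4 guidance genes to place them beside the factor that was removed. EGR1 is known to bind GC-rich DNA, and its core GCGNGGGCG was searched on both strands in windows of 250 bases before to 50 bases after each RefSeq start on GRCm38.p6. Of the 35 guidance genes with a window, 8 held the core (22.9%), against 1695 of 27025 genes (6.27%). They were Efna1, Efna3, Efna5, Epha1, Epha8, Slit2, Slit3 and Unc5b. Counted per window the share was 8 of 40 (20%), against 1824 of 32851 (5.55%). Efna3 and Slit2 are shown as a ligand of each kind that held the core, and Robo3 and Ntn5 as the guidance genes with the lowest p in Egr1cKO mice, whose windows held none. The lines give RefSeq sequence, 5′ to 3′ on the strand of the gene, upstream of the RefSeq start and of the GENCODE gene body. The capitals mark the core, which in Efna3 reads in its reverse complement. Efna3 is at chr3:89322966-89323189 on the minus strand, Slit2 at chr5:47982905-47983137 on the plus strand, Robo3 at chr9:37433247-37433425 on the minus strand and Ntn5 at chr7:45683772-45684021 on the plus strand.
Efna3: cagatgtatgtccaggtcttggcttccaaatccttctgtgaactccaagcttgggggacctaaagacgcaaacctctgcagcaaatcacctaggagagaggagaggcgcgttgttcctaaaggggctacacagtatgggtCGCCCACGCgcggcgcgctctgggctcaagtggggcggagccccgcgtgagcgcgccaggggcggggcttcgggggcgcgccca
Slit2: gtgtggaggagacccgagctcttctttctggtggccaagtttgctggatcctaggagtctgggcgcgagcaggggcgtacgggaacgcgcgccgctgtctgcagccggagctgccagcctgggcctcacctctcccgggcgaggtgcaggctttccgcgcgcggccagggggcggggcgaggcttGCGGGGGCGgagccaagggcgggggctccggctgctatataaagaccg
Robo3: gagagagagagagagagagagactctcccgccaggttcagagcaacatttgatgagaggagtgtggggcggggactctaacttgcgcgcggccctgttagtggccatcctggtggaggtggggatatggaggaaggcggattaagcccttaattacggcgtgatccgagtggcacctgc
Ntn5: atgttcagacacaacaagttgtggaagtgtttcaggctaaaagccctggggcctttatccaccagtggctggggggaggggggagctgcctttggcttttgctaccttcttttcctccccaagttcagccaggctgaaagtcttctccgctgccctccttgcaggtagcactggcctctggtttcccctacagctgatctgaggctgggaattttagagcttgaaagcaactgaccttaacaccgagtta
A match is a description of the letters in this window and says nothing of binding, and no match says only that these letters are not in it.

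In wild-type mice the systems were led by genes of different roles. Levels of different genes are compared as CPM per kilobase of exonic length (CPM/kb). Epha4, an EphA receptor that binds ephrins of both classes, stood at 60.4 CPM/kb ± 7.33 (SD, n = 6), and the Robo ligand Slit1 at 57.3 CPM/kb ± 6.05 (SD, n = 6). The netrin receptor Unc5a followed at 47.5 CPM/kb ± 3.54 (SD, n = 6) and the transmembrane ligand Efnb3 at 44.7 CPM/kb ± 2.91 (SD, n = 6). Neighbours in this order overlapped between mice, and then came a gap, since the lowest Efnb3 level lay above the highest level of the next gene, Epha7.

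Below them stood Epha7 at 22.8 CPM/kb ± 3.31 and Ephb6, an Eph receptor without kinase activity, at 22.4 CPM/kb ± 1.27. The ligand Efna3 (16.6 CPM/kb), Slit3 (15.0 CPM/kb), Epha6 (14.0 CPM/kb), the netrin-G Ntng2 (12.9 CPM/kb) and Epha5 (11.4 CPM/kb) completed the 11 genes over 10 CPM/kb. The leaders of the remaining families were lower: Robo3 led the Robo receptors at 7.25 CPM/kb ± 1.82 and Ntn5 the secreted netrins at 2.56 CPM/kb ± 0.671. Both leads depend on dividing by exonic length, and Robo3 overlapped Robo2 between mice. Undivided, mean levels were 117 CPM for Robo2, 70.1 CPM for Robo1 and 49.7 CPM for Robo3. Those of the netrins were 11.2 CPM for Ntn3, 8.85 CPM for Ntn1 and 5.67 CPM for Ntn5. Under 1 CPM/kb lay 5 genes, namely Epha8, Robo4, Efna4, Epha2 and Epha1. Adjacent genes in the order also failed to overlap between Ephb6 and Efna3 and between Robo4 and Efna4, and all other neighbours overlapped.

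**Figure D1:**
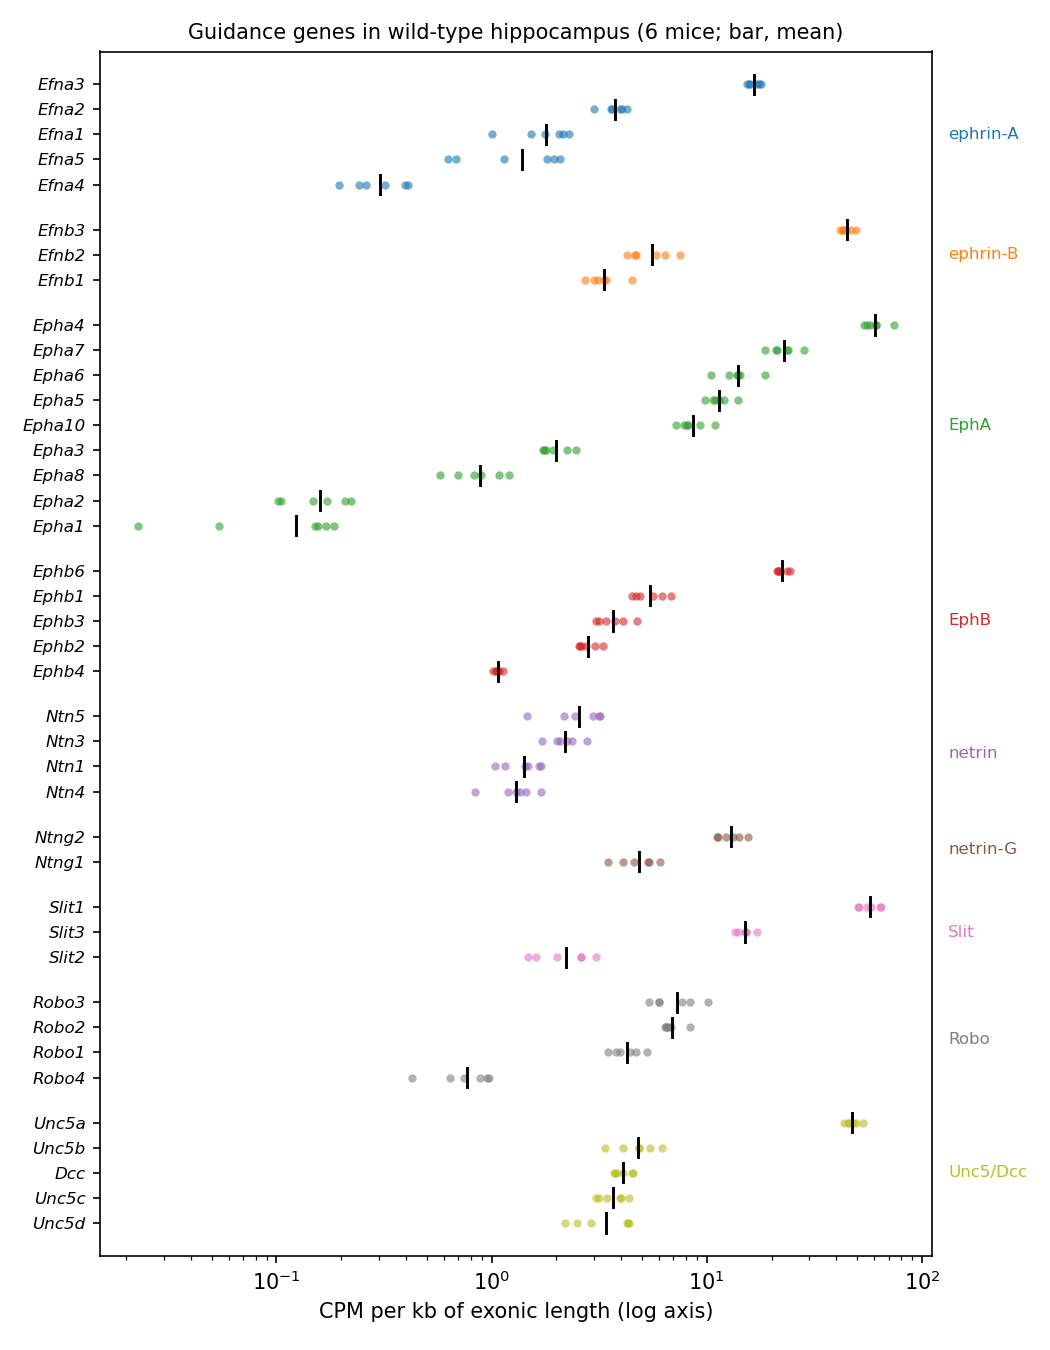
Level of the 40 guidance genes in the 6 wild-type mice, in CPM per kilobase of exonic length on a log axis, 1 row per gene, points for mice and marks for the mean. Epha4, Slit1, Unc5a and Efnb3 stand together between 44.7 and 60.4 CPM/kb, with a gap to Epha7 at 22.8 CPM/kb.

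Ligands had a median of 3.34 CPM/kb and receptors of 4.25 CPM/kb, with wide ranges in both. The ligands reached from 0.304 CPM/kb in Efna4 to 57.3 CPM/kb in Slit1, and the receptors from 0.123 CPM/kb in Epha1 to 60.4 CPM/kb in Epha4. Mice of the same genotype and sex differed from each other by a median SD of 0.260 on the log2 scale over the guidance genes, against 0.236 over the 19742 genes kept. The steadiest were Efnb3 (SD 0.0714) and Unc5a (SD 0.0966), and the most variable were Efna5 (SD 0.584) and Epha6 (SD 0.474).

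Which guidance genes follow the loss of Egr1 was asked first in Egr1cKO mice against floxed controls. Genes counted as called had an adjusted p no higher than 0.05 and a fold change of 1.2 or more, by edgeR's quasi-likelihood test with Benjamini-Hochberg adjustment over all genes tested. Of the 39 guidance genes tested 0 were called, against 0.0232% of all genes, and their lowest adjusted p was 0.242 in this test. At an unadjusted p under 0.05, 8 were higher in Egr1cKO mice (Efnb2, Epha5, Epha6, Ntn1, Robo1, Robo2, Unc5c and Unc5d) and 3 were lower (Epha10, Ntn5 and Robo3), where the shares over all genes were 8.03% higher and 8.16% lower. In 0 guidance genes did the 2 genotypes not overlap, against 0.463% of all genes. DESeq2 called 2, Ntn5 and Robo3 (all genes 0.231%). Efna4, with 2 to 26 counts per mouse, was too low to be tested here.

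By role, 6 of 23 receptors were higher and 2 lower at that unadjusted threshold, and 2 of 16 ligands were higher and 1 lower. The receptors' median log2 fold change was 0.20, with 18 of 23 above 0, and that of the ligands was 0.090. All 39 together had a median of 0.13, with 27 above 0, while all 17265 genes tested had a median of -0.0071 with 48.6% above 0.

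The effect of the Cre transgene without a floxed allele was asked in Nestin-Cre against wild-type mice. Of 40 guidance genes 0 were called (all genes 0%), 0 were higher (all genes 3.33%) and 3 were lower (all genes 2.72%) at an unadjusted p under 0.05 by edgeR, and in 0 did the genotypes not overlap (all genes 0.245%). DESeq2 also called 0 (all genes 0.0585%). The 3 were Ephb2, Slit3 and Unc5c. The receptors' median was -0.14, with 6 of 23 above 0, and the ligands' 0.039, beside 0.013 over all genes. The receptors' medians thus lay on opposite sides of 0 in the 2 Cre comparisons, although single receptors such as Robo3 and Unc5a were below 0 in both.

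The floxP by Cre interaction tests that difference gene by gene, as the log2 difference between Egr1cKO mice and floxed controls minus that between Nestin-Cre and wild-type mice. Calls here used the adjusted p alone, without a fold change. The interaction called 0 of 40 guidance genes (all genes 0.00543%), with a lowest adjusted p of 0.150 in edgeR. At an unadjusted p under 0.05 it was above 0 in 11 (all genes 9.92%) and below 0 in 2 (all genes 9.31%). Of the receptors 9 of 23 were above 0 at that threshold and 0 below, and of the ligands 2 of 17 were above and 2 below. The median over the guidance genes was 0.14, over the receptors 0.19 and over all genes -0.023. DESeq2 called 2, Epha5 and Robo2 (all genes 0.916%), and gave no adjusted p for some, Ntn5 among them.

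**Figure D2:**
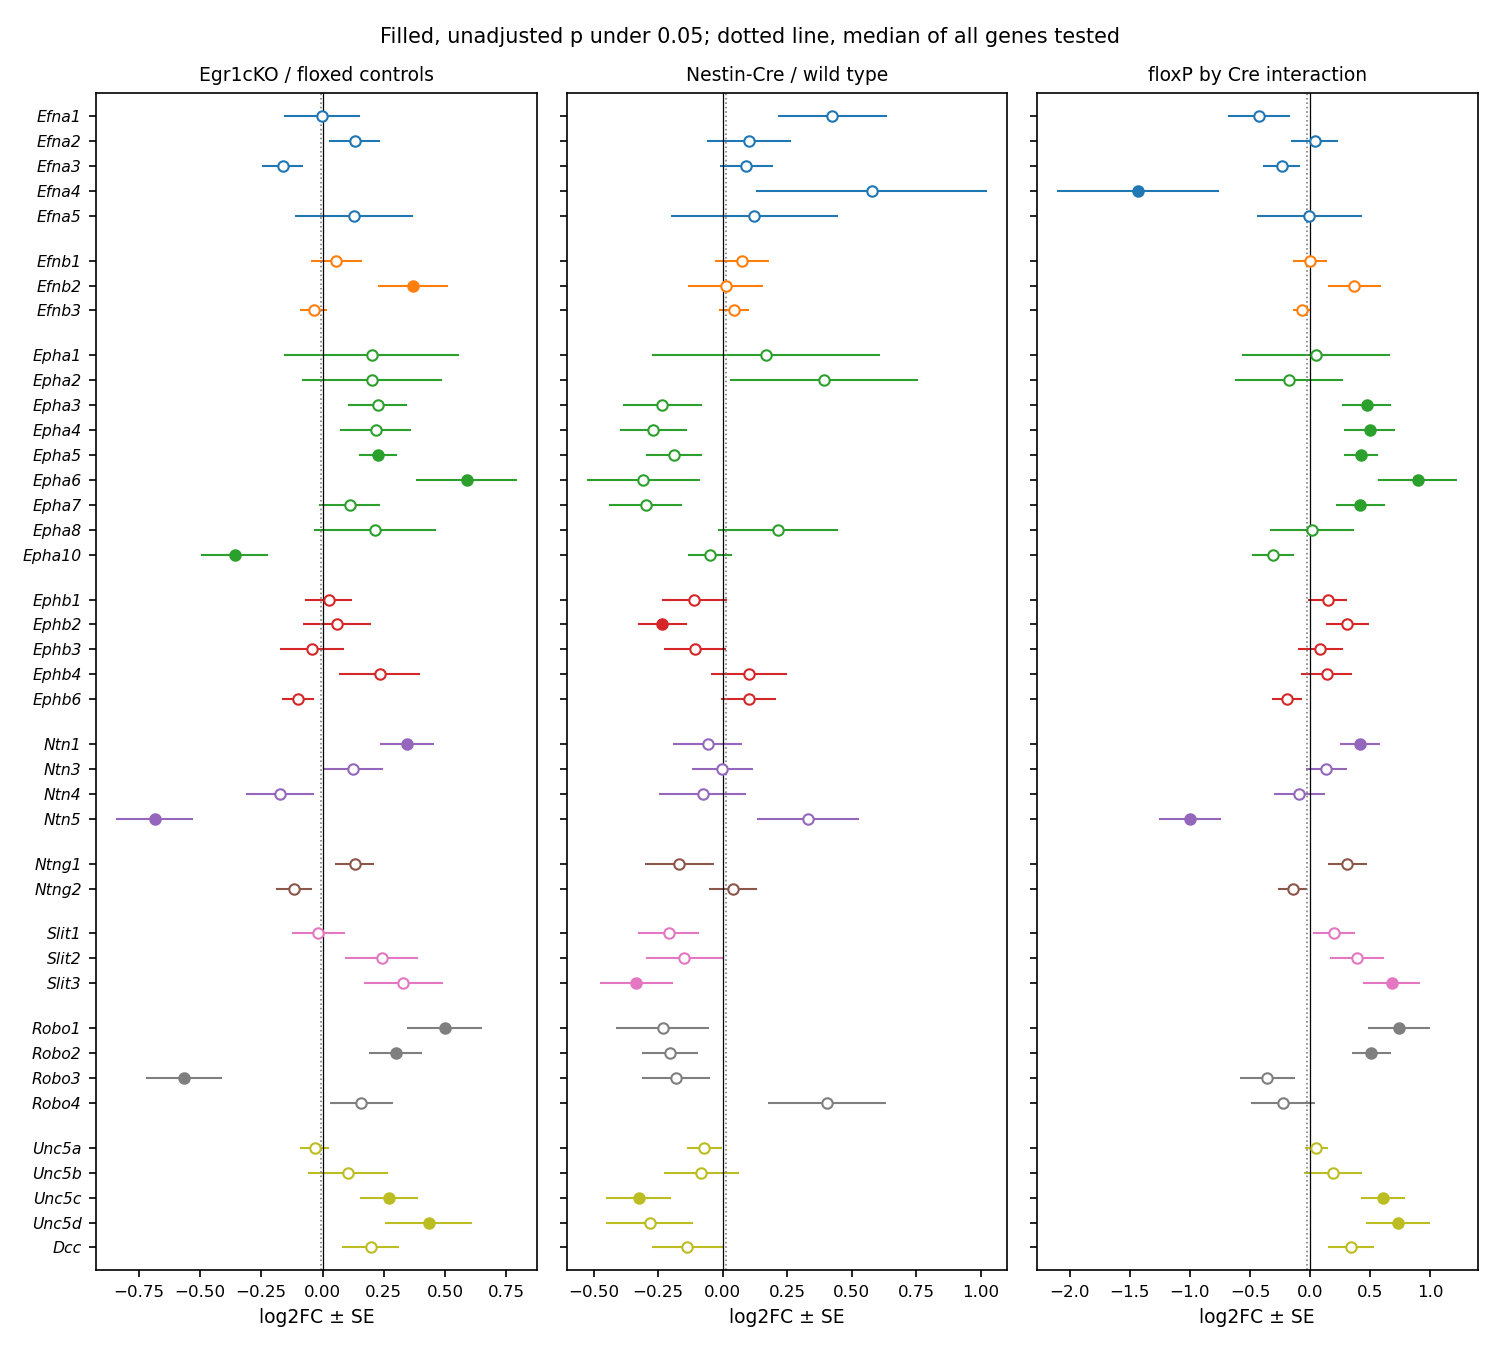
Log2 fold change (points) with its SE (bars) of each tested guidance gene, grouped by family, in Egr1cKO against floxed controls, in Nestin-Cre against wild-type mice and in the floxP by Cre interaction, with filled points at an unadjusted p under 0.05 and a dotted line at the median of all genes. In the panel of Egr1cKO mice Robo1 stands at 0.50 and Ntn5 at -0.68, and edgeR called no guidance gene in any of the panels.

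The other comparisons bring in both series of mice. Floxed controls against wild-type mice gave 0 calls of 40 guidance genes by edgeR (all genes 0%), 4 higher (all genes 5.59%) and 4 lower (all genes 4.09%) at an unadjusted p under 0.05, and 1 gene without overlap between genotypes (all genes 0.282%). The higher genes were Efna3, Efnb1, Ntn5 and Robo4, and the lower ones Epha4, Epha5, Epha6 and Epha7. Egr1cKO against Nestin-Cre mice gave 0 calls of 39 (all genes 0.00585%), 8 higher (all genes 6.32%) and 2 lower (all genes 5.98%), and 1 without overlap (all genes 0.345%). The 8 were Epha5, Ntn1, Slit2, Slit3, Robo1, Robo2, Unc5c and Unc5d, and the 2 were Ntn5 and Robo3. Egr1cKO mice against the 18 mice with intact Egr1 gave 0 calls of 40 (all genes 0.00543%), 9 higher (all genes 8.11%) and 4 lower (all genes 7.0%), and 0 without overlap (all genes 0.0109%). The 9 were Efnb1, Efnb2, Epha6, Ntn1, Slit3, Robo1, Robo2, Robo4 and Unc5d, and the 4 were Efna4, Epha10, Ntn5 and Robo3. DESeq2 called 0, 0 and 2 guidance genes in these 3 comparisons (all genes 0.00583%, 0.088% and 0.115%), the last being Ntn1 and Robo3. These comparisons share mice with each other and with the 2 above, so their values are set side by side and are not independent.

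Among the ephrin-A ligands, Efna3 was the family's most abundant gene and the one without overlap between floxed controls and wild-type mice. Wild-type mice had 37.5 to 43.5 CPM of Efna3 (median 40.3) and floxed controls 43.9 to 52.1 CPM (median 47.5). Nestin-Cre mice ran from 29.5 to 55.6 CPM (median 44.2) and Egr1cKO mice from 33.3 to 54.5 CPM (median 43.5), so both Cre genotypes spanned the others. The log2 fold change of floxed controls over wild-type mice was 0.24 ± 0.0644 (SE), with an unadjusted p of 0.00171 and an adjusted p of 0.515 in edgeR. An antisense gene, Gm15998, shares 14.1% of the exonic bases of Efna3, and the libraries do not mark strand.

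Efna4 was the rarest ligand. Its level was 0.312 to 0.656 CPM in wild-type mice, 0.219 to 0.767 CPM in floxed controls, 0.101 to 1.25 CPM in Nestin-Cre mice and 0.0847 to 0.467 CPM in Egr1cKO mice, with overlap throughout. Its interaction was -1.43 ± 0.676 (SE) on the log2 scale, with an unadjusted p of 0.0440 in edgeR. Counts of 2 to 26 per mouse leave this value imprecise. Efna1, Efna2 and Efna5, the remaining A-type ligands, ran over all mice from 1.84 to 6.86, from 5.52 to 12.4 and from 1.91 to 13.01 CPM, and none reached an unadjusted p under 0.05 in any comparison.

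Of the ephrin-B ligands, which signal in both directions at synapses, Efnb3 was nearly the same in every mouse. It ran from 133 to 158 CPM in wild-type mice (median 139), from 141 to 152 CPM in floxed controls (median 146), from 140 to 156 CPM in Nestin-Cre mice (median 145) and from 132 to 153 CPM in Egr1cKO mice (median 141). The difference of Egr1cKO mice from floxed controls in Efnb3 was -0.037 ± 0.0570 (SE) on the log2 scale. Efnb2 was more spread, with 29.3 to 51.5 CPM in wild-type mice (median 35.9), 30.4 to 39.5 CPM in floxed controls (median 33.6), 31.2 to 52.7 CPM in Nestin-Cre mice (median 35.4) and 26.2 to 59.1 CPM in Egr1cKO mice (median 48.5). The lowest as well as the highest Efnb2 level was that of an Egr1cKO mouse. Its log2 fold change over floxed controls was 0.37 ± 0.142 (SE), with an adjusted p of 0.259 in edgeR. Without Egr1cKO male replicate 3, the mouse with the highest Efnb2, it was 0.22 ± 0.116 (SE). Efnb1 ran from 9.39 to 15.9 CPM over all mice and was 0.23 higher on the log2 scale in floxed controls than in wild-type mice, with an unadjusted p of 0.0320 in edgeR.

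The EphA receptors gave the largest positive differences of the Eph family. Epha6 (ENSMUSG00000055540, chr16:59653483-60605531 on GRCm38, minus strand) ran from 55.0 to 99.1 CPM in wild-type mice (median 73.4), from 39.5 to 81.6 CPM in floxed controls (median 48.4), from 42.3 to 119 CPM in Nestin-Cre mice (median 50.3) and from 40.3 to 106 CPM in Egr1cKO mice (median 91.3). In Egr1cKO mice 5 of the 6 lay at 86.4 CPM or above and male replicate 3 at 40.3 CPM, and in Nestin-Cre mice male replicate 2 stood alone at 119 CPM above 54.2 CPM. The log2 fold change of Epha6 in Egr1cKO mice over floxed controls was 0.59 ± 0.205 (SE), with an adjusted p of 0.255 in edgeR. The interaction was 0.90 ± 0.330 (SE), with an adjusted p of 0.163.

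Epha5, a receptor of A-type ephrins, differed less but more evenly. It had 164 to 234 CPM in wild-type mice (median 186), 157 to 188 CPM in floxed controls (median 159), 129 to 222 CPM in Nestin-Cre mice (median 167) and 165 to 215 CPM in Egr1cKO mice (median 200). Egr1cKO mice were 0.23 ± 0.0787 (SE) above floxed controls on the log2 scale, with an adjusted p of 0.255 in edgeR, and the interaction was 0.42 ± 0.141 (SE). DESeq2 gave the same interaction an adjusted p of 0.0481.

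Epha10, which lacks kinase activity, was the EphA receptor below 0 in Egr1cKO mice against floxed controls. Its levels were 52.0 to 79.1 CPM in wild-type mice (median 58.4), 55.5 to 83.8 CPM in floxed controls (median 64.6), 51.7 to 65.7 CPM in Nestin-Cre mice (median 60.5) and 41.5 to 74.8 CPM in Egr1cKO mice (median 50.7). The groups overlapped, with a log2 fold change over floxed controls of -0.36 ± 0.136 (SE) and an adjusted p of 0.256 in edgeR. An antisense gene shares 1.1% of its exonic bases.

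Epha4, the most abundant receptor, had medians of 476 CPM in wild-type mice, 382 CPM in floxed controls, 388 CPM in Nestin-Cre mice and 509 CPM in Egr1cKO mice, within ranges of 432 to 597, 358 to 537, 315 to 585 and 271 to 568 CPM. Its median was thus lower with either allele alone than with neither or with both, although the ranges overlapped. The Epha4 interaction was 0.50 ± 0.210 (SE), with an unadjusted p of 0.0257. Epha7 repeated that order with medians of 222, 190, 185 and 210 CPM, in ranges of 185 to 281, 163 to 225, 124 to 262 and 135 to 265 CPM, and an interaction of 0.42 ± 0.202 (SE), with an unadjusted p of 0.0475. Epha3 had medians of 16.1, 13.9, 14.6 and 16.7 CPM, in ranges of 15.1 to 21.4, 11.5 to 18.3, 9.07 to 20.6 and 15.2 to 21.05 CPM, and an interaction of 0.47 ± 0.203 (SE), with an unadjusted p of 0.0282. The rare receptors Epha1, Epha2 and Epha8 ran from 0.0891 to 1.37, from 0.369 to 1.87 and from 2.46 to 7.58 CPM over all mice, and none reached an unadjusted p under 0.05.

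Among EphB receptors, Ephb2, which clusters NMDA receptors at synapses, was 1 of the 3 genes lower in Nestin-Cre mice. It had 32.2 to 41.5 CPM in wild-type mice (median 33.7), 27.6 to 39.4 CPM in floxed controls (median 33.0), 24.6 to 35.5 CPM in Nestin-Cre mice (median 31.1) and 20.9 to 41.0 CPM in Egr1cKO mice (median 39.2). The Nestin-Cre difference from wild type was -0.23 ± 0.0945 (SE) on the log2 scale, with an unadjusted p of 0.0247 and an adjusted p of 0.754 in edgeR. The family's leader Ephb6 had medians of 82.2, 89.3, 84.5 and 80.8 CPM in wild-type mice, floxed controls, Nestin-Cre mice and Egr1cKO mice, in ranges of 80.0 to 91.7, 79.9 to 92.1, 74.7 to 128 and 74.7 to 89.6 CPM. No genotype comparison of Ephb6 reached an unadjusted p under 0.05. Ephb1, Ephb3 and Ephb4 ran from 28.3 to 47.8, from 15.5 to 31.3 and from 3.28 to 7.35 CPM, and no comparison of theirs reached it either.

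The secreted netrins Ntn1 and Ntn5 differed in opposite directions. Ntn1 (ENSMUSG00000020902, chr11:68209364-68400823 on GRCm38, minus strand) is the founding netrin and a ligand of Dcc. It had 6.54 to 10.7 CPM in wild-type mice (median 9.14), 7.74 to 10.4 CPM in floxed controls (median 8.83), 7.69 to 9.36 CPM in Nestin-Cre mice (median 8.39) and 9.76 to 13.6 CPM in Egr1cKO mice (median 11.1). Every Egr1cKO mouse was above every Nestin-Cre mouse in Ntn1, while the ranges overlapped with wild-type mice and floxed controls. Over floxed controls the log2 fold change was 0.34 ± 0.110 (SE), with an adjusted p of 0.253 in edgeR, and over Nestin-Cre mice it was 0.42 ± 0.112 (SE), with an adjusted p of 0.354. Against all 18 mice with intact Egr1 it was 0.38 ± 0.0898 (SE), and the adjusted p was 0.179 in edgeR and 0.0449 in DESeq2. The interaction was 0.41 ± 0.166 (SE), with an unadjusted p of 0.0189.

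Ntn5 (ENSMUSG00000070564, chr7:45684022-45694556 on GRCm38, plus strand) is a short netrin. It had 3.25 to 7.04 CPM in wild-type mice (median 5.98), 4.86 to 9.63 CPM in floxed controls (median 7.76), 4.86 to 9.17 CPM in Nestin-Cre mice (median 6.96) and 3.89 to 5.81 CPM in Egr1cKO mice (median 4.72). The Egr1cKO mice had the lowest median of Ntn5, but mice of every other genotype lay among them, and a wild-type mouse at 3.25 CPM lay below them all. Ntn5 had the largest negative difference among the guidance genes tested against floxed controls, -0.68 ± 0.156 (SE) on the log2 scale, with an adjusted p of 0.242 in edgeR and 0.0212 in DESeq2. Its interaction of -1.0 ± 0.257 (SE) had an adjusted p of 0.150 in edgeR. Floxed controls were 0.45 ± 0.191 (SE) above wild-type mice in Ntn5, with an unadjusted p of 0.0310. Sec1, on the opposite strand, shares 23.4% of the exonic bases of Ntn5, so reads of the pair cannot be told apart there.

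Ntn3 ran from 8.72 to 14.5 CPM and Ntn4 from 3.12 to 6.56 CPM over all mice, and neither reached an unadjusted p under 0.05 between genotypes. The netrin-Gs are membrane-anchored and bind synaptic adhesion proteins instead of Dcc. Ntng2, the more abundant, had medians of 50.8, 54.0, 54.2 and 51.0 CPM in wild-type mice, floxed controls, Nestin-Cre mice and Egr1cKO mice, in ranges of 44.3 to 62.3, 48.6 to 61.6, 44.9 to 61.0 and 43.7 to 52.6 CPM. Ntng1 ran from 25.2 to 50.1 CPM over all mice. No genotype comparison of either netrin-G reached an unadjusted p under 0.05.

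Of the netrin receptors, Unc5c and Unc5d had an unadjusted p under 0.05 in Egr1cKO mice against floxed controls, and neither was called. Unc5c had 58.3 to 83.2 CPM in wild-type mice (median 70.5), 49.2 to 75.5 CPM in floxed controls (median 54.2), 46.5 to 77.2 CPM in Nestin-Cre mice (median 50.3) and 55.6 to 79.8 CPM in Egr1cKO mice (median 75.7). Its Cre difference was 0.27 ± 0.120 (SE) in Egr1f mice and -0.33 ± 0.125 (SE) in Egr1wt mice on the log2 scale, with adjusted p values of 0.291 and 0.754 in edgeR. With the share of counts in long genes as a term, the former was -0.019. The interaction of 0.61 ± 0.184 (SE) had an unadjusted p of 0.00282 and an adjusted p of 0.150.

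Unc5d had 20.2 to 40.2 CPM in wild-type mice (median 32.9), 19.1 to 30.1 CPM in floxed controls (median 27.4), 18.8 to 31.5 CPM in Nestin-Cre mice (median 25.2) and 24.6 to 55.3 CPM in Egr1cKO mice (median 31.8). Its log2 fold change in Egr1cKO mice over floxed controls was 0.43 ± 0.177 (SE), with an adjusted p of 0.271 in edgeR, and 0.22 ± 0.129 (SE) without Egr1cKO male replicate 3, which had the 55.3 CPM. Its interaction was 0.73 ± 0.267 (SE, unadjusted p = 0.0110). Unc5a had medians of 195, 205, 194 and 199 CPM in the 4 genotypes in the same order, in ranges of 181 to 222, 191 to 211, 153 to 201 and 179 to 222 CPM. The Unc5a difference of Egr1cKO mice from floxed controls was -0.032 ± 0.0601 (SE) on the log2 scale. Unc5b ran from 18.6 to 44.2 CPM, and Dcc, the attractive netrin receptor, from 32.1 to 75.7 CPM, and neither reached an unadjusted p under 0.05 between genotypes.

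Of the Slit ligands, Slit1 was the most abundant and Slit3 the most different between genotypes. Slit1 had medians of 337, 328, 295 and 339 CPM in wild-type mice, floxed controls, Nestin-Cre mice and Egr1cKO mice, in ranges of 299 to 383, 302 to 410, 200 to 404 and 228 to 393 CPM. Slit3 had 81.9 to 104 CPM in wild-type mice (median 91.7), 64.6 to 112 CPM in floxed controls (median 69.6), 54.7 to 117 CPM in Nestin-Cre mice (median 65.4) and 56.4 to 115 CPM in Egr1cKO mice (median 106). In Slit3, 5 of the 6 Nestin-Cre mice lay below every wild-type mouse and male replicate 2 above all of them at 117 CPM, and 5 of the 6 Egr1cKO mice lay at 99.4 CPM or above, with male replicate 3 at 56.4 CPM. The log2 difference of Nestin-Cre from wild type was -0.33 ± 0.143 (SE), with an adjusted p of 0.754 in edgeR, and the Slit3 interaction was 0.68 ± 0.239 (SE), with an adjusted p of 0.152. Slit2 ran from 37.7 to 80.0 CPM over all mice and was 0.28 ± 0.116 (SE) higher on the log2 scale in Egr1cKO than in Nestin-Cre mice, with an adjusted p of 0.375 in edgeR.

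Robo1 and Robo2, the principal Slit receptors of neurons, stood higher in Egr1cKO mice, and Robo3 lower. Robo1 (ENSMUSG00000022883, chr16:72308306-73046095 on GRCm38, plus strand) had 57.1 to 86.7 CPM in wild-type mice (median 68.6), 42.5 to 87.6 CPM in floxed controls (median 54.3), 43.2 to 103 CPM in Nestin-Cre mice (median 52.9) and 59.1 to 92.6 CPM in Egr1cKO mice (median 87.7). The Robo1 difference of Egr1cKO mice from floxed controls was 0.50 ± 0.153 (SE) on the log2 scale, with an adjusted p of 0.253 in edgeR, and the interaction was 0.74 ± 0.258 (SE), with an adjusted p of 0.152. Robo2 had 109 to 142 CPM in wild-type mice (median 112), 86.7 to 131 CPM in floxed controls (median 92.1), 85.0 to 140 CPM in Nestin-Cre mice (median 95.8) and 98.8 to 139 CPM in Egr1cKO mice (median 129). For Robo2 the difference was 0.30 ± 0.109 (SE), with an adjusted p of 0.255 in edgeR, and the interaction was 0.51 ± 0.163 (SE), with an adjusted p of 0.150 in edgeR and 0.0438 in DESeq2.

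Robo3 (ENSMUSG00000032128, chr9:37415669-37433246 on GRCm38, minus strand) is a divergent Robo that modulates Slit repulsion in commissural axons. It had 36.9 to 69.7 CPM in wild-type mice (median 46.8), 34.01 to 46.2 CPM in floxed controls (median 42.9), 38.8 to 48.4 CPM in Nestin-Cre mice (median 43.5) and 18.8 to 51.0 CPM in Egr1cKO mice (median 25.4). The Egr1cKO females had 23.1, 18.8 and 24.7 CPM and the males 30.01, 51.0 and 26.1 CPM. Thus 5 of the 6 Egr1cKO mice were below every one of the 18 other mice, and male replicate 2 was above all but 3 of them. The log2 difference of Robo3 from floxed controls was -0.56 ± 0.155 (SE), with an adjusted p of 0.242 in edgeR and 0.0490 in DESeq2. From Nestin-Cre mice it was -0.63 ± 0.162 (SE), with an adjusted p of 0.354 in edgeR. Against all mice with intact Egr1 it was -0.63 ± 0.145 (SE), with an adjusted p of 0.159 in edgeR and 0.0336 in DESeq2. Without male replicate 2, the mouse that goes against the others, the adjusted p of Robo3 in edgeR was 0.0152 against floxed controls, 0.00967 against Nestin-Cre mice and 0.000824 against all others. That mouse was singled out for its Robo3 value, so a lower p without it follows from the choice and adds no support. Without the 5 mice with high Ttr, the adjusted p of Robo3 in edgeR was 0.193 against floxed controls, 0.0137 against Nestin-Cre mice and 0.00442 against all others. Male replicate 2 is 1 of those 5 mice, so this is no separate check.

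Robo4, the Robo of endothelium, lies beside Robo3 on chromosome 9 without sharing exons. It had 2.25 to 5.14 CPM in wild-type mice (median 4.31), 4.52 to 7.25 CPM in floxed controls (median 5.77), 3.30 to 7.06 CPM in Nestin-Cre mice (median 5.76) and 6.06 to 7.27 CPM in Egr1cKO mice (median 6.68). Floxed controls were 0.55 ± 0.185 (SE) above wild-type mice on the log2 scale, with an adjusted p of 0.515 in edgeR. The sum of the 8 endothelial markers measured had medians in the same order as Robo4, with overlapping ranges. It had a median of 142 CPM in wild-type mice (104 to 220), 175 CPM in floxed controls (148 to 184), 169 CPM in Nestin-Cre mice (111 to 216) and 192 CPM in Egr1cKO mice (173 to 196). Single markers did not all keep that order. Mean Pecam1 and Tek were lower in Nestin-Cre than in wild-type mice, and the other markers higher. Egr1cKO mice had the highest mean of each marker except Cldn5, highest in Nestin-Cre mice, and Ly6c1, highest in floxed controls. The part of endothelial cells in the Robo4 values was not tested.

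**Figure D3:**
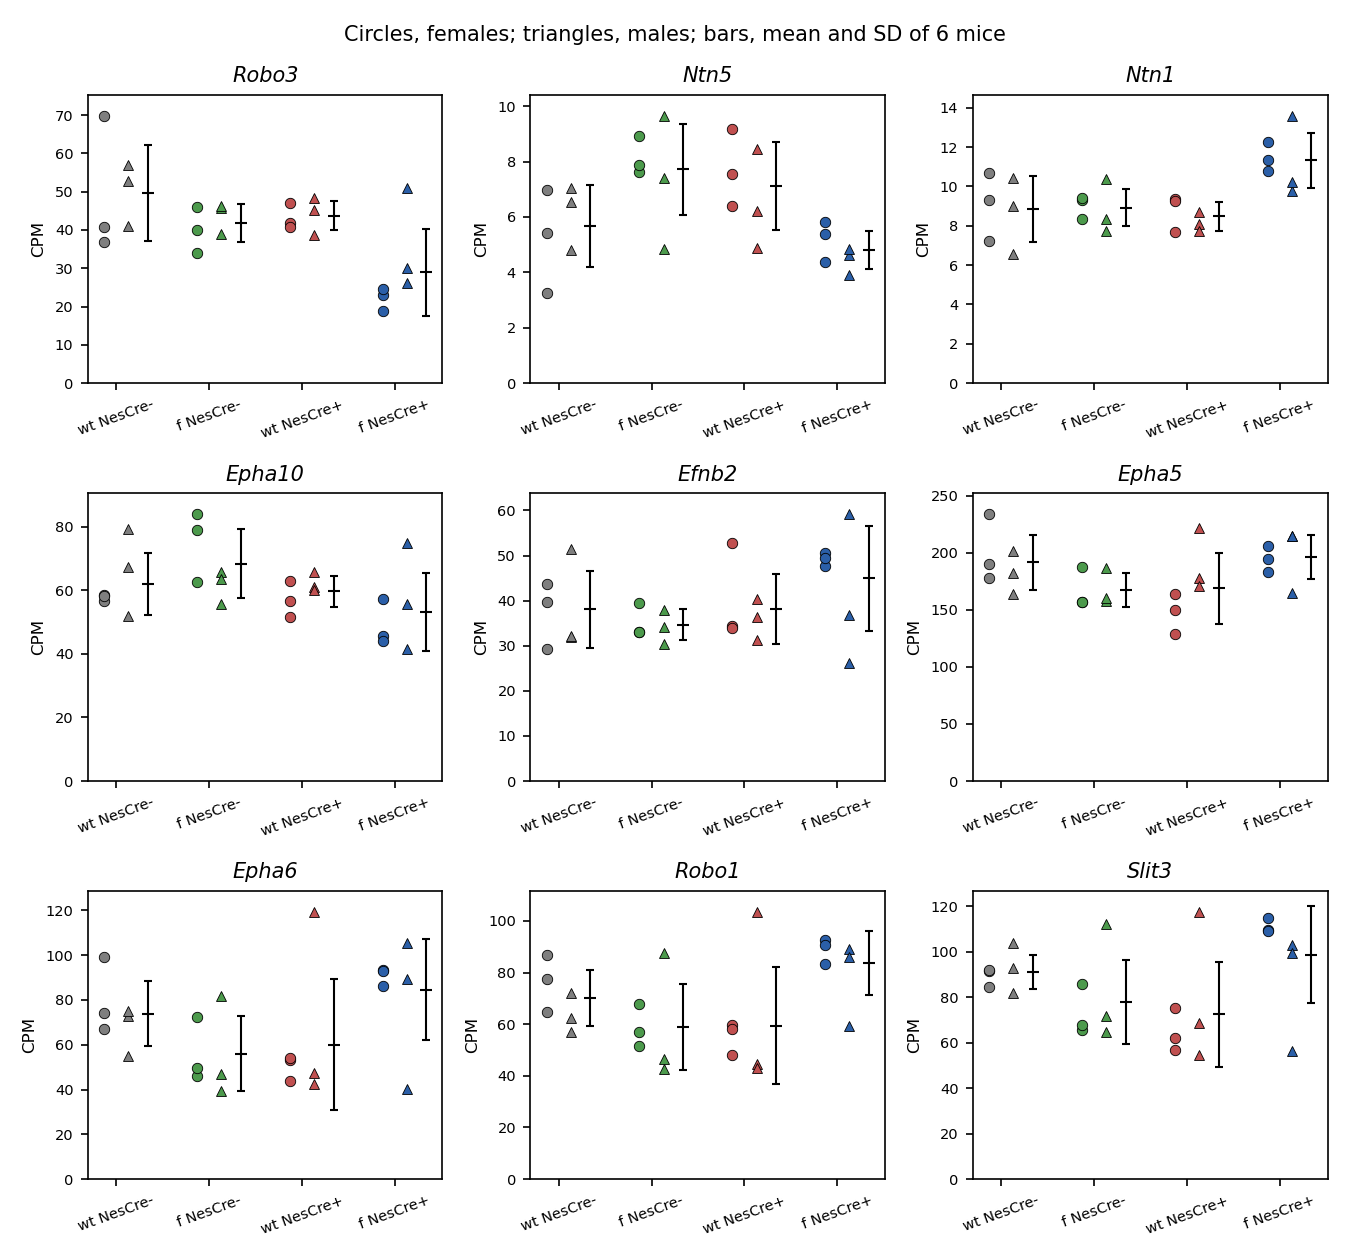
CPM of 9 guidance genes in each of the 24 mice, 1 panel per gene, by genotype, with circles for females, triangles for males and bars for the mean and SD of 6 mice. In the Robo3 panel 5 Egr1cKO mice sit between 18.8 and 30.01 CPM and the remaining one at 51.0 CPM, while in the Ntn1 panel all Egr1cKO mice sit above all Nestin-Cre mice.

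The length of a gene was not used in choosing the guidance genes, and 12 of the 40 span over 300 kb of the genome. They were Epha3, Epha5, Epha6, Ephb1, Ntng1, Slit2, Slit3, Robo1, Robo2, Unc5c, Unc5d and Dcc, among them 6 of the 8 that stood higher in Egr1cKO mice than in floxed controls. In that comparison 12 of these 12 had log2 fold changes above 0, with a median of 0.26. Of all 542 genes of that span 87.8% were above 0, with a median of 0.17, whereas of the 5375 genes under 10 kb 33.8% were, with a median of -0.099. In Nestin-Cre against wild-type mice 0 of the 12 were above 0, with a median of -0.22, beside 22.4% of 539 genes with a median of -0.090. In floxed controls against wild-type mice 0 of the 12 were above 0 as well, with a median of -0.22, beside 17.4% of 541 genes with a median of -0.10. The interaction was above 0 in 12 of 12, with a median of 0.49, beside 87.5% of 545 genes with a median of 0.27. The long guidance genes thus had the sign of most long genes in each of these comparisons, with medians further from 0. The part of gene length in their values was not tested.

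**Figure D4:**
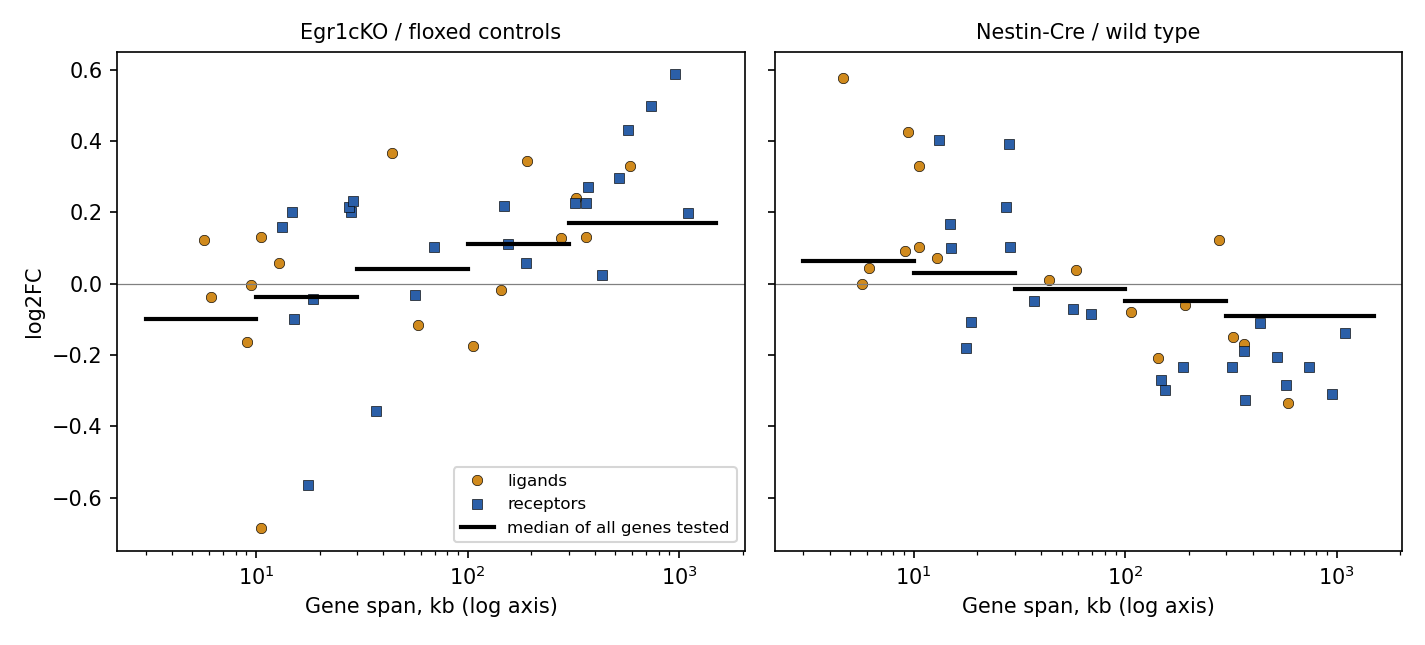
Log2 fold change against genomic span in kilobases (log axis) for the ligands (circles) and receptors (squares), with bars at the median of all genes tested in each span class, in Egr1cKO against floxed controls and in Nestin-Cre against wild-type mice. The 12 guidance genes over 300 kb lie above 0 in the former (median 0.26) and below 0 in the latter (median -0.22).

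The same pattern was seen per mouse. The 12 long guidance genes summed to 739 to 955 CPM in wild-type mice (median 859), 644 to 919 CPM in floxed controls (median 680), 602 to 1026 CPM in Nestin-Cre mice (median 680) and 704 to 964 CPM in Egr1cKO mice (median 946). The share of counts in protein-coding genes spanning over 100 kb, guidance genes left out, had medians of 20.9%, 19.1%, 19.5% and 21.8% in the same order of genotypes. Medians of marker sums of several cell types also differed, with those of oligodendrocytes higher in the floxed and Nestin-Cre mice. In the same order of genotypes the medians were 7789, 7266, 7024 and 8103 CPM for hippocampal neurons, 4830, 4086, 4412 and 5424 CPM for astrocytes, and 4195, 5178, 5126 and 4264 CPM for oligodendrocytes. The ranges of the genotypes overlapped in each of these sums. For oligodendrocytes they were 4034 to 5493, 3993 to 5904, 4025 to 6141 and 3248 to 4662 CPM. The mitochondrial share had medians of 4.78%, 5.09%, 5.37% and 4.40%. The part of these in the values of the guidance genes was not tested. Among the mice that stood apart in several guidance genes, Nestin-Cre male replicate 2 had the highest share of its genotype, 22.6%, and Egr1cKO male replicate 3 the lowest, 19.1%. Wild-type female replicate 2, at 21.5%, and floxed male replicate 1, at 21.6%, also had the highest share of their genotypes. Nestin-Cre female replicate 1, at 20.1%, was inside the range of its genotype. So was Egr1cKO male replicate 2, at 21.7%, which stood apart in Robo3 alone. Egr1cKO male replicate 3 also had the highest mitochondrial share of its genotype, 6.12%, and the highest sum of striatal markers of the 24 mice, 142 CPM. Leaving out single mice moved calls of these genes. Without Nestin-Cre male replicate 2, edgeR called 6 guidance genes lower in Nestin-Cre than in wild-type mice (Epha4, Epha6, Robo1, Robo2, Slit3 and Unc5c), with 1.31% of all genes called. Without the same mouse it called 8 in Egr1cKO against Nestin-Cre mice (Epha6, Ntn1, Ntn5, Robo1, Robo2, Robo3, Slit3 and Unc5c; all genes 4.58%) and 8 in the interaction (Epha4, Epha5, Epha6, Ntn5, Robo1, Robo2, Slit3 and Unc5c), where 8.11% of all genes were called. Without floxed male replicate 1, whose share of 21.6% was the highest of its genotype, it called 3 in Egr1cKO mice against floxed controls, Epha6 (0.77), Robo1 (0.69) and Robo2 (0.39), and 2 in the interaction, Robo1 and Robo2, with 1.74% of all genes called in each. Nestin-Cre male replicate 2 had the highest Epha4, Epha6, Slit3, Robo1 and Robo2 of its genotype. Floxed male replicate 1 had the highest Epha6, Robo1 and Robo2 of its own. Calls of these genes without those mice follow from the mouse left out and add no support. The other 28 guidance genes summed to medians of 1852, 1738, 1679 and 1870 CPM.

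**Figure D5:**
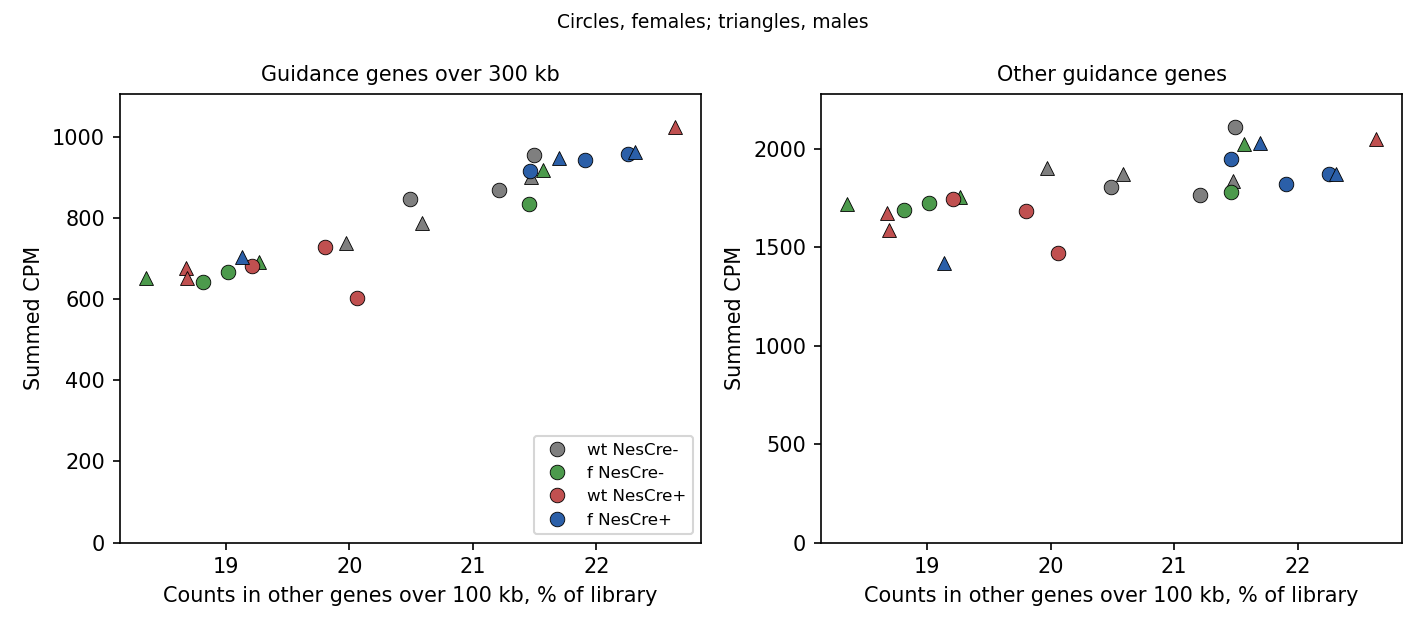
Summed CPM of the 12 guidance genes over 300 kb (left) and of the other 28 (right) against the share of counts in long genes. The share is the percent of counts in protein-coding genes spanning over 100 kb, guidance genes left out. Each mouse is 1 point (circles for females, triangles for males) coloured by genotype. Nestin-Cre male replicate 2, at 22.6% and 1026 CPM, lies at the upper right of the left panel, and Egr1cKO male replicate 3, at 19.1% and 704 CPM, among the low mice.

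With this share as a term of the fit, chosen after seeing the data, 3 guidance genes were higher (all genes 3.63%) and 4 lower (all genes 2.48%) in Egr1cKO mice against floxed controls at an unadjusted p under 0.05. Robo1 then stood at 0.13 on the log2 scale, Robo2 at 0.050, Epha6 at 0.014 and Unc5c at -0.019. Not every long gene fell this far: over all alternatives, this term among them, Unc5d was no lower than 0.22. The lowest Epha5 value over them was 0.064, below that of Robo1 with this term. Ntn5, Robo3 and Ntn1, which are not among the 12, moved less: Ntn5 stood at -0.85 ± 0.180 (SE, adjusted p = 0.343 in edgeR), Robo3 at -0.52 ± 0.196 (SE, adjusted p = 0.727) and Ntn1 at 0.45 ± 0.122 (SE, adjusted p = 0.510). The share is itself measured after the loss of Egr1, so its part in the differences of the long genes was not tested.

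A list of 42 partners of the 3 systems, other receptors, ligands and the cytoskeletal signalling proteins behind them, gave 0 calls in edgeR in each of the genotype comparisons. In Egr1cKO mice against floxed controls 9 were higher (all genes 8.03%) and 1 lower (all genes 8.16%) at an unadjusted p under 0.05, with a median log2 fold change of 0.085. The higher ones were Flrt2, Srgap3, Trio, Rock2, Adam10, the netrin receptor Neo1 (0.21 ± 0.0849, SE), the Unc5 ligand Flrt1 (0.35 ± 0.123, SE), the Rac exchange factor Tiam1 (0.24 ± 0.0916, SE) and the phosphatase Ptpn13 (0.29 ± 0.0819, SE). The lower one was Pick1, a PDZ protein that binds ephrin-Bs and Ephs (-0.33 ± 0.114, SE). In Nestin-Cre against wild-type mice 0 were higher (all genes 3.33%) and 2 lower (all genes 2.72%), Kalrn and Tiam1, with a median of -0.059. The interaction was above 0 in 12 (all genes 9.92%) and below in 2 (all genes 9.31%).

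Sex was compared over all genotypes, 12 females against 12 males. DESeq2 called 0 guidance genes (all genes 0.0492%). Of 39 guidance genes 0 were called by edgeR (all genes 0.0701%). At an unadjusted p under 0.05 in edgeR, 2 were higher in females (all genes 2.83%) and 0 lower (all genes 2.83%). The 2 were Ntn4, at 0.22 ± 0.105 (SE) on the log2 scale, and Unc5b, at 0.25 ± 0.117 (SE). Females had 4.01 to 6.31 CPM of Ntn4 and males 3.12 to 6.56 CPM, and for Unc5b the ranges were 20.1 to 44.2 CPM and 18.6 to 33.9 CPM, so the sexes overlapped in both.

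Taken within females alone, 3 mice against 3, edgeR called 3 of 39 guidance genes in Egr1cKO mice against floxed controls, Robo1, Robo3 and Slit3, beside 0.288% of all genes. Robo3 was at 23.1, 18.8 and 24.7 CPM in Egr1cKO females and at 34.01, 40.02 and 46.1 CPM in floxed females, a log2 difference of -0.85 ± 0.132 (SE) with an adjusted p of 0.0250 in edgeR. Slit3 was at 109, 115 and 109 CPM against 85.9, 65.8 and 67.7 CPM, a log2 fold change of 0.60 ± 0.104 (SE) with an adjusted p of 0.0342. Robo1 was at 83.4, 92.6 and 90.8 CPM against 67.7, 51.5 and 57.0 CPM, a log2 fold change of 0.59 ± 0.105 (SE) with an adjusted p of 0.0347. In males the differences were -0.28 ± 0.218 (SE) for Robo3, 0.064 ± 0.250 (SE) for Slit3 and 0.41 ± 0.259 (SE) for Robo1, with adjusted p values of 0.954 to 0.985 in edgeR. Egr1cKO male replicate 3 had the lowest Slit3 and Robo1 of its genotype, and male replicate 2 the highest Robo3. Floxed male replicate 1 had the highest Slit3 and Robo1 of its genotype. The share of counts in long genes was 21.5%, 21.9% and 22.3% in Egr1cKO females and 21.5%, 18.8% and 19.0% in floxed females. In males it was 22.3%, 21.7% and 19.1% against 21.6%, 19.3% and 18.4%. Its part in these values was not tested.

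The sex by Egr1cKO interaction tests, in Egr1cKO mice and floxed controls, whether females and males differed in these responses. It called 0 of the 40 guidance genes in DESeq2 (all genes 0.00875%). In edgeR it also called 0 (all genes 0%), with an adjusted p of 0.999 for each. At an unadjusted p under 0.05 it was above 0 in 4 (all genes 1.18%), Ephb2, Ephb6, Slit2 and Unc5a, and below 0 in 1 (all genes 3.03%), Epha10. For Robo3 the interaction was -0.57 ± 0.282 (SE), with an unadjusted p of 0.0630, and for Slit3 it was 0.54 ± 0.305 (SE), with an unadjusted p of 0.0961. A difference between the sexes in the response of Robo1, Robo3 or Slit3 was thus not detected by this test.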

How the data were processed

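RNA was extracted from the hippocampus with the RNeasy kit, and libraries that do not mark strand were sequenced in paired-end mode. The authors trimmed reads with Trim Galore, mapped them to GRCm38 with STAR 2.7.9 per the submitters' processing notes, and deposited the counts of 36605 genes in each mouse as whole numbers, not normalized. The annotation used for counting is not given in the sources used here. All 24 columns were used, and genotype, sex and replicate came from the labels.

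From these counts TMM factors were computed, and genes passing filterByExpr (minimum count 10) were tested with edgeR 4.0.16 (quasi-likelihood F test, R 4.3.3) over the mice compared, with sex as a term in the interaction and between single genotypes but not against all other mice, and with Benjamini-Hochberg adjustment over all genes tested. The study's methods give the threshold, an adjusted p of 0.05 and a fold change of 1.2. Both interactions, floxP by Cre and sex by Egr1cKO, were called on the adjusted p alone. SE is the log2 fold change divided by the root of F. CPM uses TMM over the 24 mice, and spreads are of log2(CPM + 0.5). DESeq2 1.42.0 was the main alternative; others were DESeq2 size factors, no low-count filter, each sex alone, other covariates, a replicate block and leaving out single mice (only Egr1cKO mice against all others, and none between the sexes). A further pair of settings, and leaving out control mice in the interaction, were chosen after seeing the data. Symbols, spans and exonic lengths came from GENCODE M21, which named 36493 genes.

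The guidance genes, the partner and marker lists and the tests were chosen with earlier results of these data known. All guidance genes are accounted for. Values by genotype are given for genes called, for genes with an unadjusted p under 0.05 in Egr1cKO mice against floxed controls, in Nestin-Cre against wild-type mice or in the interaction, and for the gene of each family with the highest CPM/kb. Some others were added after their values were seen. Replicate numbers did not pair mice: correlations of deviations ran from -0.19 to 0.18. Each fit was also run on simulated counts with known changes. These were drawn independently for each gene and mouse, so shifts shared by many genes of a mouse were not covered. Whether mice came from separate litters is not given, so p-values measure the spread between these mice.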

Additional observations from a re-analysis of the deposited data

Results flagged for a closer look

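Within each genotype, the highest and the lowest of the 6 mice were tested for standing apart from the rest, in CPM of each guidance gene. Of 160 groups 19 were flagged, in 12 genes, where chance flags about 1 in 20 groups and where genes that vary together are flagged together.

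Nestin-Cre male replicate 2 stood apart in 5 genes, each time as the highest. Its Epha4 was 585 CPM, with the next mouse at 413 CPM. Epha6 was 119 CPM above 54.2 CPM, Slit3 was 117 CPM above 75.1 CPM, Robo1 was 103 CPM above 59.9 CPM and Robo2 was 140 CPM above 99.3 CPM. Egr1cKO male replicate 3 stood apart as the lowest in 4 of the same genes, with 271 CPM of Epha4 below 474 CPM, 40.3 CPM of Epha6 below 86.4 CPM, 56.4 CPM of Slit3 below 99.4 CPM and 59.1 CPM of Robo1 below 83.4 CPM. The share of counts in protein-coding genes spanning over 100 kb was 22.6% in the former and 19.1% in the latter, and its part in these values was not tested.

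Nestin-Cre female replicate 1, which had high Ttr, stood apart in 3 genes. It had the highest Efna5 of its genotype (13.01 CPM, next 5.53 CPM), the highest Ephb6 (128 CPM, next 90.2 CPM) and the lowest Unc5a (153 CPM, next 192 CPM). Wild-type female replicate 2 had the highest Epha4 (597 CPM, next 492 CPM) and Robo2 (142 CPM, next 116 CPM). Floxed male replicate 1, the most deeply sequenced mouse, had the highest Ntn3 (14.5 CPM, next 11.1 CPM) and Slit1 (410 CPM, next 332 CPM).

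The remaining flags were single. Robo3 in Egr1cKO male replicate 2 was 51.0 CPM, with the next mouse at 30.01 CPM. Epha1 in Egr1cKO male replicate 1 was 1.37 CPM, with the next at 0.654 CPM. Ntn3 in Nestin-Cre female replicate 2 was the lowest at 8.91 CPM, with the next at 10.9 CPM.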

How the results depend on the processing

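Counts of guidance genes called by edgeR, 0 in all 8 comparisons, kept that value in 62 of 74 alternatives other than leaving out a mouse. In Egr1cKO mice against floxed controls DESeq2 called 2 (all genes 0.231%), testing without a filter on low counts 10 (all genes 2.36%) and females alone 3 (all genes 0.288%). Without the filter edgeR called 4 in Nestin-Cre against wild-type mice (all genes 0.456%) and 1 in floxed controls against wild-type mice (all genes 0.475%). It called 7 in Egr1cKO against Nestin-Cre mice (all genes 1.55%) and 11 in the interaction (all genes 3.2%) that way. Egr1cKO against Nestin-Cre females gave 4 (all genes 1.81%). Without the 5 mice with high Ttr, 1 was called in Egr1cKO against Nestin-Cre mice (all genes 0.0116%) and 1 against all others (all genes 0.104%), Robo3 in both. DESeq2 called 2 against all others (all genes 0.115%) and 2 in the interaction (all genes 0.916%). Leaving out single mice gave 0 to 3 in Egr1cKO mice against floxed controls, 0 to 6 in Nestin-Cre against wild-type mice, 0 to 8 in Egr1cKO against Nestin-Cre mice, 0 to 8 in the interaction, 0 to 2 against all others (only the 6 Egr1cKO mice were left out there) and 0 in floxed controls against wild-type mice and in the sex by Egr1cKO interaction. The comparison of the sexes was not refitted this way. With 2 called against all others, the mouse left out was Egr1cKO male replicate 3, and the genes were Epha10 and Robo3 (all genes 1.15%). Over all genes, calls in Egr1cKO mice against floxed controls were 4 by edgeR, 79 by DESeq2 and 808 without the filter. In Nestin-Cre against wild-type mice they were 0, 20 and 156, in floxed controls against wild-type mice 0, 2 and 163, in Egr1cKO against Nestin-Cre mice 1, 30 and 529, against all others 1, 42 and 7, and in the interaction 1, 335 and 1173. With replicate number as a block, a replicate block that does not stand for shared litters, 0 guidance genes were called in all 8 comparisons and 9 genes in Egr1cKO mice against floxed controls. Log2 fold changes of named guidance genes turned sign in 2 of 245 such alternatives and in 0 of 480 that left out a mouse. With the share of counts in long genes as a term, Unc5c in Egr1cKO mice against floxed controls turned to -0.019 and Epha4 in the interaction to -0.019. The causes were not tested. Efna4, Epha1 and Epha2, the rarest, are limited by depth.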
